A study of Mus musculus with 3 samples.

Results

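The 9 genes described here, *Arg1*, *Nos2*, *Mrc1*, *Retnla*, *Cd163*, *Folr2*, *Il10*, *Trem2*, and *Gpnmb*, are widely used to sort macrophages into activation states. They were taken by symbol from the 27998 genes of 3 single-cell libraries, and all 9 had at least 1 UMI (unique molecular identifier, a tag that counts each captured transcript once). Their levels and their detection in the same cell were measured in Csf1r-positive cells, meaning cells with at least 1 UMI of *Csf1r*, the receptor for the growth factor that maintains monocytes and macrophages. This gate held 489 of 1813 bone marrow cells (27.0%), 604 of 2146 blood cells (28.1%), and 2641 of 4780 tendon cells (55.3%).

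Macrophages exposed to interferon gamma and bacterial products are known to induce *Nos2*, which makes nitric oxide from arginine, while those exposed to IL-4 or IL-13 induce *Arg1*, which breaks the same arginine down to ornithine and urea, together with *Mrc1* and *Retnla*. *Cd163* and *Folr2* mark macrophages that settle in tissues, *Il10* encodes a cytokine that restrains inflammation, and *Trem2* and *Gpnmb* belong to the program of macrophages that take up lipid and debris. These labels come largely from cultured cells, and macrophages in wounds are known to carry several of them at once.

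All 3 libraries came from 10-week-old C57BL/6J male mice 3 days after burn/tenotomy, a dorsal burn combined with a cut through the Achilles tendon that leads to bone formation in the soft tissue. The bone marrow, the blood, and the tendon injury site each gave a single unsorted library, none was from an uninjured mouse, and the sources used here do not state how many mice were behind it. Femur marrow was flushed out, blood was drawn by cardiac puncture and its mononucleated cells taken from a Ficoll gradient, and the tendon alone was digested, with collagenase and dispase. Site, library, and preparation therefore cannot be told apart. With 1 library per site no test was possible, no p-value is given, and all intervals are 95% intervals that cover counting error only.

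The gate is a working definition, and its contents were checked against fixed markers. Clusters made in each library without the 9 genes and without *Csf1r* were named from these markers, and 94.5%, 97.9%, and 91.5% of the monocyte/macrophage-like cells of bone marrow, blood, and tendon held a *Csf1r* UMI. Such cells made up 67.1%, 53.5%, and 77.4% of the gate. The rest of the blood gate was mainly 154 neutrophil-like cells and 114 cells of an unnamed cluster led by *Cd300e*, *Ace*, and *Treml4*, genes known from nonclassical monocytes. In the tendon gate, 276 cells were unnamed, 116 neutrophil-like, and 99 mesenchymal-like. Only 0.413% of T-like blood cells fell in the gate, whereas 14.5% of mesenchymal-like tendon cells did at their median of 34614 UMIs. The latter share was 0.731% once every cell was cut down by random draw to 1000 UMIs (thinning). Thinning also cut the gated share of monocyte/macrophage-like cells, to 17.1%, 28.5%, and 34.6% in bone marrow, blood, and tendon. Gated cells had a median of 23260 UMIs in marrow, 15408.5 in blood, and 12528 in the tendon, and the libraries shared 2, 1, and 6 cell barcodes in pairs.

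Most of the 9 genes were highest at the injury site. In Csf1r-positive cells, 8 of them were higher at the tendon injury site than in blood by at least 2-fold and 1, *Retnla*, was lower, while among all 13493 genes with at least 20 UMIs 28.7% were higher and 11.7% lower by that measure. Against bone marrow all 9 were higher, beside 27.1% of 13647 genes, and 15.4% of those genes were lower. Since both comparisons use the same tendon cells, they are not independent of each other. *Il10* had 0 UMIs in blood and in marrow, and *Folr2*, *Arg1*, and *Retnla* had 0 in marrow. In those comparisons they passed the minimum through the tendon alone and could only be called higher. *Nos2* had 3 UMIs in marrow, too few for a lower call at this minimum, so its direction against marrow was fixed as well. Levels are given below as CPM (UMIs of a gene scaled to a total of 1000000 UMIs in the same cells), with exact Poisson intervals, and are not compared between genes.

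*Mrc1*, which encodes the mannose receptor CD206, a lectin that clears glycoproteins, stood at 3.20 CPM in marrow (2.35 to 4.26, 47 UMIs), 7.09 in blood (5.47 to 9.04, 65 UMIs), and 838 in the tendon (829 to 847, 32944 UMIs). Marrow and blood lay at the foot of the range, and the tendon over blood log2 ratio was 6.88 (6.53 to 7.26). *Cd163*, the scavenger receptor for hemoglobin bound to haptoglobin, was at 2.25 CPM in marrow, 2.62 in blood, and 141 in the tendon, and the intervals of the first pair (1.55 to 3.16 and 1.68 to 3.90) overlapped. *Folr2*, a folate receptor, had 0 UMIs in marrow, 20 UMIs in blood (2.18 CPM), and 5943 in the tendon (151 CPM). For both genes only the tendon was high, with log2 ratios to blood of 5.75 (5.17 to 6.39) for *Cd163* and 6.11 (5.49 to 6.83) for *Folr2*.

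*Arg1* had 0 UMIs in the 489 marrow cells, 151 in blood (16.5 CPM, 14.0 to 19.3), and 14148 in the tendon (359.9 CPM, 354 to 366). Tendon over blood, its log2 ratio was 4.45 (4.22 to 4.69). *Nos2* stayed near the limit of detection at every site, with 3 UMIs in marrow (0.204 CPM), 10 in blood (1.09), and 104 in the tendon (2.65). The wide interval of this tendon over blood log2 ratio, 1.28 (0.34 to 2.38), reached below 2-fold.

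*Il10* had no UMI in gated marrow or blood cells, which allows at most 0.204 and 0.327 CPM, and 2882 UMIs in the tendon (73.3 CPM, 70.7 to 76.0). Set against a floor of 3 UMIs over the group, the tendon exceeded blood by a log2 ratio of 7.81, with a lower limit of 7.51. *Gpnmb*, a membrane glycoprotein of lysosome-rich phagocytes, was at 2.39 CPM in marrow, 2.62 in blood, and 123 in the tendon, which put tendon over blood at a log2 ratio of 5.56 (4.98 to 6.20).

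*Trem2*, a receptor for lipids and lipoproteins that signals through the adaptor encoded by *Tyrobp*, was found in many cells of every site. It stood at 78.6 CPM in marrow (74.1 to 83.3), 98.9 in blood (92.5 to 106), and 387 in the tendon (381 to 394), and tendon over blood was 1.97 on the log2 scale (1.87 to 2.07). After thinning, 9.20% of gated marrow cells, 7.31% of blood cells, and 28.3% of tendon cells held a *Trem2* UMI, and without thinning 59.7%, 42.6%, and 77.2% did. In blood the gene sat in monocytes, with 822 of 906 UMIs in the cluster led by *F13a1*, *Vcan*, *Chil3*, and *Ccr2*, genes of classical monocytes, where it reached 152 CPM, and 22.4 CPM in the cluster led by *Cd300e* and *Ace*.

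*Retnla*, a secreted resistin-like protein that is strongly induced by IL-4, ran the other way. It had 0 UMIs in gated marrow cells, 3115 in blood (339.9 CPM, 328 to 352), and 195 in the tendon (4.96 CPM, 4.29 to 5.71), so that tendon over blood was -6.10 on the log2 scale (-6.31 to -5.89). The blood UMIs came from very few cells, as 14 of 604 gated cells held any, 1 cell held 1507, and the 6 cells with the most held 98.9%.

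**Figure D1:**
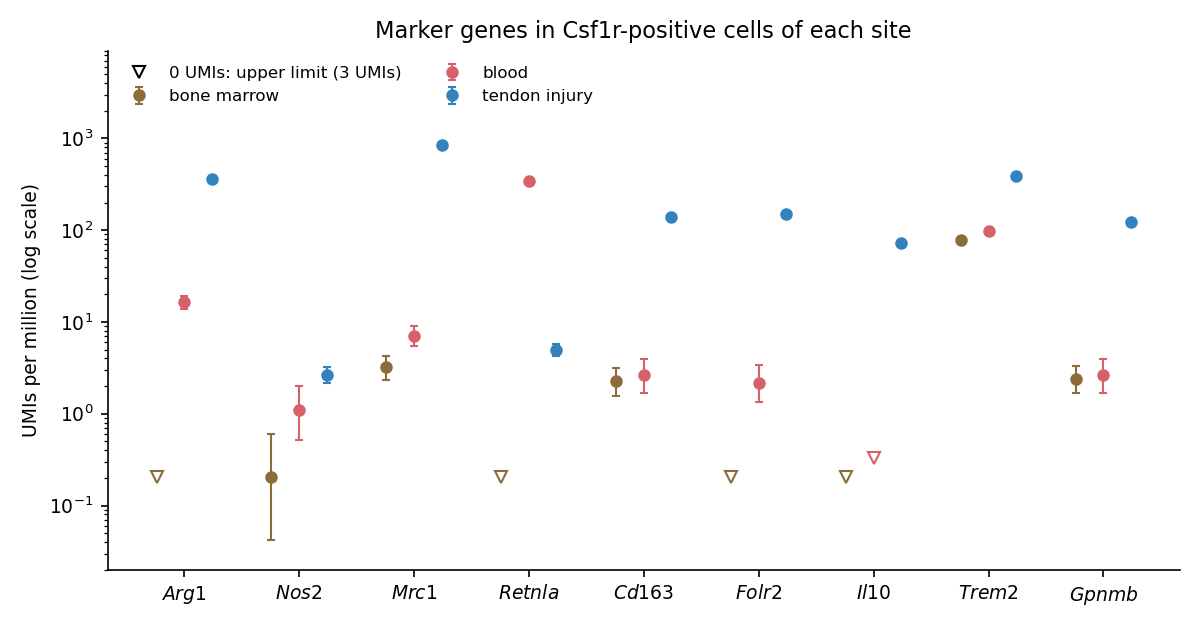
CPM (log scale) of the 9 genes in the Csf1r-positive cells of each site, with exact Poisson 95% intervals for counting error and open triangles for the upper limit where no UMI was found. Tendon is the highest site for 8 genes, *Trem2* is at 78.6 and 98.9 CPM in marrow and blood, and *Retnla* is highest in blood at 339.9 CPM.

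Blood and bone marrow differed less. Of the 7 genes with enough UMIs, 4 were at least 2-fold higher in blood and 0 lower, beside 9.94% higher and 15.5% lower of 11200 genes. These 4 were *Mrc1* (log2 ratio 1.15, 0.58 to 1.72), *Folr2* (3.42, lower limit 2.98), *Arg1* (6.33, lower limit 6.02), and *Retnla* (10.70, lower limit 10.40). The last 3 had 0 UMIs in marrow and passed the minimum through blood alone. They could therefore only be called higher, and the count of 4 against 0 is in large part set by that minimum. *Trem2* (0.33), *Cd163* (0.22), and *Gpnmb* (0.13) did not reach 2-fold.

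Much of what blood held of these genes lay in 1 small cluster. It had 37 cells at a median of 29580 UMIs and was led by *Prg4*, *C1qa*, *C1qc*, *C1qb*, *Pf4*, and *Alox15*, of which *Prg4* and *Alox15* are known from macrophages of serous cavities, and a *Prg4* UMI was found in 33 of the 37. This cluster held 2870 of the 3115 *Retnla* UMIs, in 12 of its cells, and 149 of the 151 *Arg1* UMIs, in 14 cells. It also held 18 of 20 *Folr2*, 22 of 24 *Cd163*, and 30 of 65 *Mrc1* UMIs, but 60 of 906 *Trem2* UMIs. Of the remaining *Retnla* UMIs, 244 came from a single cell of a cluster named neutrophil-like. With the *Prg4*-led cluster left out, a choice made after seeing the data, blood *Arg1* was down to 2 UMIs and tendon over blood stood at a log2 ratio of 10.50 (8.65 to 13.55), while *Retnla* was still lower in the tendon at -2.62. *Cd163* then stood at 9.14, *Folr2* at 9.25, *Mrc1* at 7.59, *Nos2* at 1.09, and *Trem2* at 1.88. Of the 4 genes that were higher in blood than in marrow, only 1 was past 2-fold without this cluster.

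The 9 genes lie on 8 chromosomes in the GENCODE annotation of GRCm38. *Arg1* spans chromosome 10, 24915221 to 24927484 (minus strand), *Nos2* chromosome 11, 78920787 to 78960254, *Mrc1* chromosome 2, 14229392 to 14332057, and *Retnla* chromosome 16, 48842551 to 48844461. *Cd163* (124304656 to 124330527) and *Gpnmb* (49036546 to 49070929) share chromosome 6, *Folr2* spans chromosome 7, 101839988 to 101857194 (minus strand), *Il10* chromosome 1, 131019845 to 131024974, and *Trem2* chromosome 17, 48346401 to 48354147. To show the sequence next to the start of genes with these contrasting patterns, up to 250 bases upstream of the RefSeq start were read from GRCm38 for *Retnla*, high in a few blood cells, *Mrc1*, high in the tendon, and *Trem2*, present at all 3 sites. The table used held 6 of the 9 genes, among them *Gpnmb*, *Folr2*, and *Cd163*, and bases inside an annotated exon were left out. Capitals mark matches, on either strand, to the letters of STAT6 (TTC and GAA with any 4 bases between), C/EBP (TTGCNNAA), PU.1 (GAGGAA), AP-1 (TGANTCA), or NF-kB (GGGA and CC with any 4 bases between), and a match is a description of letters and not of binding.
*Retnla* (chr16:48842359-48842550, + strand, GRCm38): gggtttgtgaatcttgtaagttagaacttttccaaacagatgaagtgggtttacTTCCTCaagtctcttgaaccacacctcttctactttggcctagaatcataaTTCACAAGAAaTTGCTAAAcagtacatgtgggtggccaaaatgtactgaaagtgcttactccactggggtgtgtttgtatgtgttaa
*Mrc1* (chr2:14229164-14229391, + strand, GRCm38): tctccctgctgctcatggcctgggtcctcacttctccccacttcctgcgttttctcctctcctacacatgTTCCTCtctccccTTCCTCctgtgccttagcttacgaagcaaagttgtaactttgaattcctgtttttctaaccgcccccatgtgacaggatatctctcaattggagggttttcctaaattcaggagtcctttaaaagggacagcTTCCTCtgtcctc
*Trem2* (chr17:48346151-48346400, + strand, GRCm38): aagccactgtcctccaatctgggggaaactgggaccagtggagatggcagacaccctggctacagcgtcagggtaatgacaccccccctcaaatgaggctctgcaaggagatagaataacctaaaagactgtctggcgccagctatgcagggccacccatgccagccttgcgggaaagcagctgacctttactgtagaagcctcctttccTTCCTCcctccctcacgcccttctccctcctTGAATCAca
*Retnla* held the STAT6 letters (TTCACAAGAA) followed, after 1 base, by the C/EBP letters (TTGCTAAA), and PU.1 letters farther upstream. Over 32536 upstream windows of 250 bases, 5.89% held the STAT6 letters, 9.57% the C/EBP letters, 23.4% the PU.1 letters, 6.73% the AP-1 letters, and 17.7% the NF-kB letters. *Mrc1* held 3 PU.1 matches on the opposite strand, *Trem2* held PU.1 and AP-1 matches, the inner start of *Folr2* held 1 AP-1 match, and the window of *Gpnmb* held none of the 5.

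At the tendon injury site, UMIs of 8 of the 9 genes lay mostly in Csf1r-positive cells. For comparison, the gate held 39308459 of the 84294567 UMIs of all genes in the kept tendon cells. How many of all genes had most of their UMIs in the gate was not counted. The share ranged from 89.0% for *Retnla* and 93.7% for *Arg1* to 99.1% for *Cd163*, and 98.3% of *Mrc1*, 98.4% of *Folr2*, 96.8% of *Il10*, 97.5% of *Trem2*, and 94.4% of *Gpnmb* UMIs fell in the gate. A part of the small remainder sat in monocyte/macrophage-like cells without a *Csf1r* UMI, which held 449 *Arg1* and 344 *Mrc1* UMIs. In keratinocyte-like cells without *Csf1r*, 0 of 169 cells held a UMI of any of the 9 after thinning, and at their median of 36550 UMIs at most 7.65% did, for *Mrc1*. *Gpnmb* was also found in mesenchymal-like cells without *Csf1r*, at 10.2 CPM and in 2.22% of cells after thinning, where they held 4.21% of its UMIs.

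*Nos2* was the exception, with 34.3% of its 303 tendon UMIs in the gate (29.0 to 40.0, exact binomial interval). Neutrophil-like cells without *Csf1r* held 90 UMIs (60.8 CPM) and endothelial-like cells without *Csf1r* held 58 (7.14 CPM), against 2.65 CPM in the gate. By cluster, the neutrophil-like cluster led by *Retnlg* and *S100a9* held 117 UMIs (72.6 CPM, 60.1 to 87.1), and a shallow unnamed cluster with 6 neutrophil markers held 39 (61.7 CPM, 43.9 to 84.3). The blood endothelial-like cluster held 61 UMIs (7.76 CPM), and 34 of its 261 cells held one. Of the monocyte/macrophage-like cells in the gate, 0.538% held a *Nos2* UMI.

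**Figure D2:**
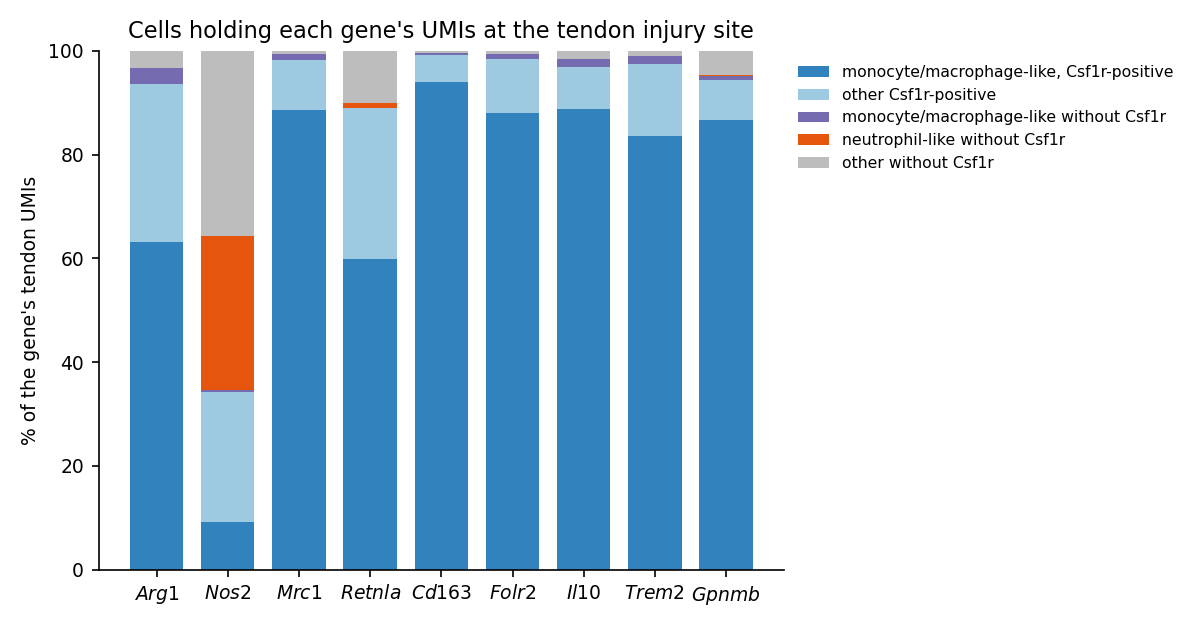
Share of each gene's UMIs in the tendon library (%, bars add up to 100) held by Csf1r-positive monocyte/macrophage-like cells, other Csf1r-positive cells, and cells without *Csf1r*. For *Nos2* 34.3% of UMIs lie in Csf1r-positive cells and 29.7% in neutrophil-like cells without *Csf1r*, while for the other 8 genes the share in Csf1r-positive cells is 89.0% or more.

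The genes also differed in how their UMIs were spread over the gated tendon cells. The 264 cells with the most UMIs of a gene, 10% of the gate, held 91.7% of *Cd163*, 90.1% of *Gpnmb*, 86.0% of *Arg1*, and 79.8% of *Il10* UMIs, but 59.2% of *Folr2*, 50.1% of *Mrc1*, and 41.9% of *Trem2* UMIs. For *Retnla* 21 cells held every UMI, and for *Nos2* the 26 cells with the most held 84.6%. After thinning, 37.3% of gated tendon cells held a *Mrc1* UMI, 28.3% *Trem2*, 13.2% *Arg1*, 11.0% *Folr2*, 7.89% *Cd163*, 6.75% *Il10*, 5.84% *Gpnmb*, 0.417% *Nos2*, and 0.152% *Retnla*.

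To see which macrophage states carried which gene, the 2043 monocyte/macrophage-like cells of the tendon gate were clustered again without the 9 genes and named from fixed state markers. The result is a description, as cells of 1 library are not replicates. *Mrc1*, *Cd163*, and *Folr2* were highest in both tissue resident-like groups. In the larger one (sub-cluster 1, 471 cells led by *Ccl7*, *Ccl8*, and *Egr1*) they stood at 2392, 458, and 403 CPM, and in the smaller one (sub-cluster 7, 44 cells led by the C-type lectin genes *Cd209f*, *Cd209d*, and *Cd209g*) at 3388, 1860, and 676. In the *Ly6c2*- and *Plac8*-expressing monocyte-like group (sub-cluster 3, 313 cells) the same genes were at 20.7, 1.13, and 0.57 CPM. The smaller resident-like group also had the highest tendon level of *Retnla*, at 46.7 CPM (32.9 to 64.4), and 29.5% of its cells held a UMI.

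*Arg1* was highest in other groups. It reached 1883 CPM (1839 to 1929) in the lipid associated-like group (sub-cluster 5, 217 cells led by *Arg1*, *Lpl*, and *Spp1*), against 137 and 20.2 in the resident-like groups and 23.2 in the *Ly6c2* group. The lipid associated-like group also held *Mrc1* at 758 CPM, *Folr2* at 276, and *Cd163* at 66.8. A *Mrc1* UMI was found in 89.4% of its cells and a *Folr2* UMI in 71.0%. At 0.5 times the clustering resolution, the highest sub-cluster of *Arg1* was 1.85 times the level of all sub-clustered cells, in place of 5.26 times, and that of *Il10* 1.12 in place of 2.29 times. The highest *Arg1* level, 4999 CPM (4840 to 5162), lay outside the named macrophages, in 60 gated cells of an unnamed cluster led by *Arg1*, *Cxcl3*, *Mmp12*, *Il7r*, and *Spp1*, and every one of the 60 held an *Arg1* UMI. This cluster (number 17 of the library) held 26.3% of the *Arg1* UMIs of the gate, and cluster 7, the main source of the lipid associated-like group, held 49.6%. The same 60 cells held *Nos2* at 47.1 CPM (32.8 to 65.5) and 0 UMIs of *Cd163* and *Retnla*.

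*Gpnmb* was highest in the interferon-like group (sub-cluster 6, 213 cells led by *Rsad2*, *Ifit2*, and *Ifit3*), at 882 CPM, and next in the lipid associated-like group at 277, with 47.1 and 5.05 in the resident-like groups. *Trem2* was highest in the same pair of groups, at 1024 and 802 CPM, but was at 158 or more in every named group. *Il10* was highest, at 227 CPM (212 to 242), in the unnamed sub-cluster 4 (304 cells led by *Il10*, *Cxcl1*, and *Il1rn*), followed by the unnamed cluster led by *Arg1* and *Cxcl3* at 136 and the monocyte-like sub-cluster 2 with MHC class II genes at 123, with 26.6 in the *Ly6c2* group and 23.5 in the cells led by *Acp5* described next. A second unnamed group of 177 gated cells, led by *Acp5*, *Atp6v0d2*, and *Ctsk*, genes known from osteoclasts, held *Trem2* at 419.7, *Mrc1* at 450.2, and *Arg1* at 222 CPM, with none of the 9 genes at its highest there. One cluster of 63 cells named neutrophil-like by its markers (*Camp*, *Ngp*, *Prtn3*, and cell cycle genes) held 1406 *Mrc1* and 61 *Retnla* UMIs in its 52 gated cells (943.8 and 40.9 CPM), the latter in 2 cells. In the other neutrophil-like cluster only 64 of 337 cells were gated. The name may therefore not hold for all cells of the first cluster, which gave 52 of the 116 neutrophil-like cells of the tendon gate.

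**Figure D3:**
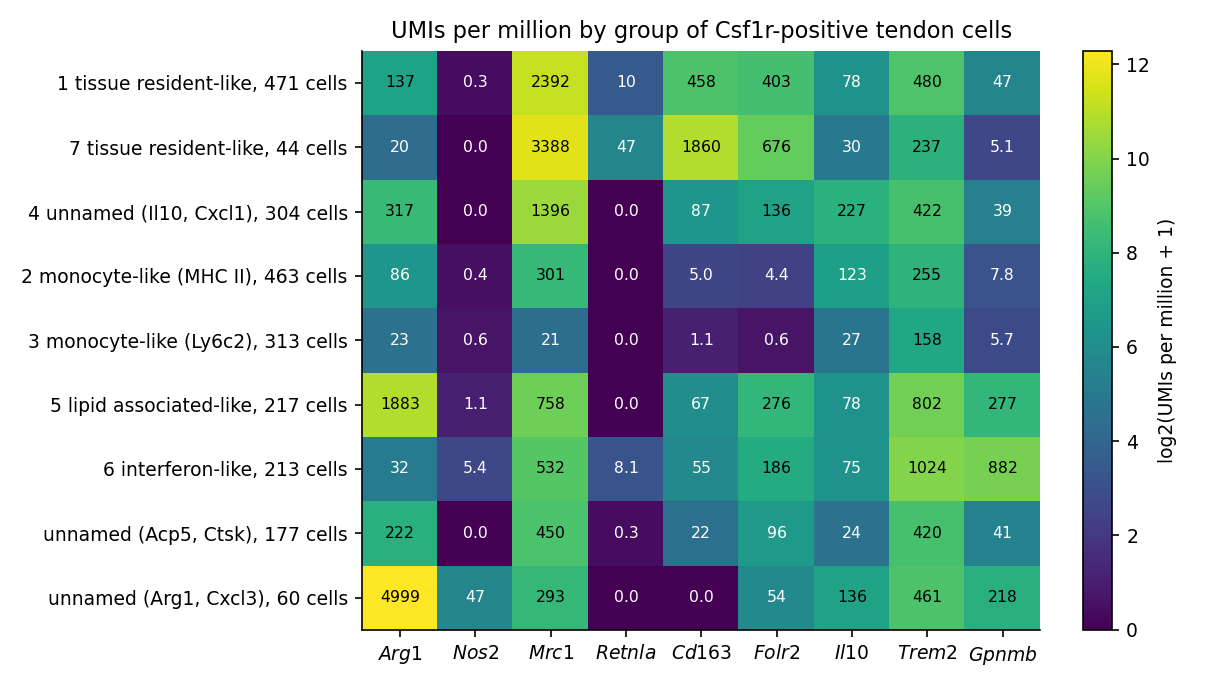
CPM (printed, color on a log2 scale after adding 1) of the 9 genes in 9 groups of Csf1r-positive tendon cells, with the number of cells in each. *Mrc1*, *Cd163*, and *Folr2* peak in the resident-like groups, *Gpnmb* and *Trem2* in the interferon-like group, and *Arg1* and *Nos2* in the unnamed group led by *Arg1* and *Cxcl3*.

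The genes were then compared between monocyte-like and mature macrophage-like cells by *Ly6c2* and by *C1qa*, *C1qb*, and *C1qc*, complement genes of mature macrophages, after thinning. The 2636 gated cells with at least 1000 UMIs fell into 167 with *Ly6c2* only, 39 with both, 1421 with C1q only, and 1009 with neither. From *Ly6c2* only to C1q only, *Mrc1* went from 69.3 to 1369 CPM (log2 ratio 4.30, 4.06 to 4.56), *Cd163* from 2.59 to 249 (6.59), *Folr2* from 0.517 to 259.5 (8.97, 6.49 to 14.27 with 1 UMI on the low side), and *Gpnmb* from 6.21 to 209 (5.07). *Arg1* went from 31.0 to 408 (3.72). In the cells with both it was at 464 CPM, with 121 of 220 UMIs in 1 cell, and after thinning 10.3% of them and 15.7% of C1q-only cells held *Arg1*. The 1009 cells with neither were not far below, at 331 CPM, and 11.8% of them held *Arg1* after thinning. *Trem2* (1.70) and *Il10* (1.70) had the smallest positive ratios. *Nos2* was lower in C1q-only cells, with 0.469 against 8.80 CPM (-4.23, -5.52 to -3.02), on 10 and 17 UMIs. Of these 17, 16 came from 1 cell of the 2 that held any, so the *Nos2* ratio rests on that cell. The cut is not sharp, as 146 cells held exactly 1 *Ly6c2* UMI and 152 exactly 1 C1q UMI.

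**Figure D4:**
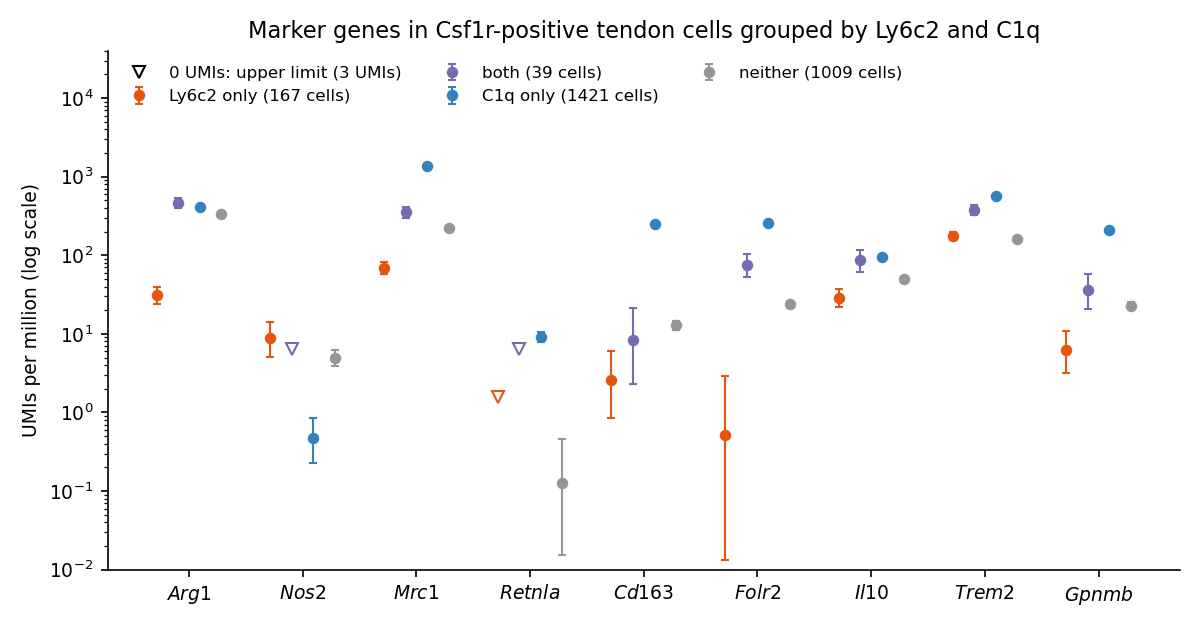
CPM (log scale) of the 9 genes in gated tendon cells grouped by the presence of *Ly6c2* and C1q UMIs after thinning, with exact Poisson 95% intervals and open triangles for upper limits. C1q-only cells lie above *Ly6c2*-only cells for every gene but *Nos2*, at 0.469 against 8.80 CPM with 16 of the latter's 17 UMIs in 1 cell, and *Retnla*, with 0 UMIs in the latter, is a lower limit.

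Co-detection was measured in the same 2636 thinned cells, as the number of cells with both genes of a pair against the number that the product of both shares would give. Of 36 pairs, 21 had an expected number of at least 5 cells. Of these, 6 were found together at least 1.5 times as often and 2 at most 1/1.5 times as often. How many pairs of other genes pass these limits was not counted. The highest ratio was that of *Cd163* and *Folr2*, with 74 cells against 22.9 (ratio 3.23). *Mrc1* was found in 171 cells with *Cd163* against 77.6 (2.20), which is 82.2% of the *Cd163* cells, and in 202 cells with *Folr2* against 108 (1.87). All 3 genes were found in 64 cells, against 8.53 for independent genes. *Trem2* and *Gpnmb* shared 89 cells against 43.6 (2.04), *Arg1* and *Gpnmb* 38 against 20.4 (1.86), and *Folr2* and *Gpnmb* 27 against 16.9 (1.59). The last ratio was 1.22 with another random draw, and that of *Arg1* with *Gpnmb* was 1.12 at 500 UMIs per cell. Without thinning, *Mrc1* with *Cd163* was at 1.47, *Mrc1* with *Folr2* at 1.44, and *Trem2* with *Gpnmb* at 1.19, while *Cd163* with *Folr2* was at 2.06.

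The pairs found together less often both involved *Cd163*. With *Arg1* it shared 11 cells against 27.5 (0.40), and with *Gpnmb* 4 cells against 12.2 (0.33). The *Arg1* pair depended on the random draw, as the ratio was 0.80 with another draw, 0.71 at 500 UMIs per cell, 0.88 at 2000, and 1.12 without thinning. The *Gpnmb* pair was at 0.43 with another draw, 0.50 at 500 UMIs, and 0.35 at 2000, but at 1.13 without thinning. *Arg1* and *Mrc1*, by contrast, were both present in 144 cells against 130 (1.11), and *Arg1* and *Folr2* in 38 against 38.4. Both pairs were near independence in this draw. The *Mrc1* pair was at 0.98 at 500 UMIs, 1.25 at 2000, and 1.27 without thinning. The *Folr2* pair was at 1.17 with another draw, 1.37 at 500 UMIs, 1.496 at 2000, and 1.44 without thinning. Its near independence was thus not kept in these runs. In all, 981 of the cells (37.2%) held none of the 9 genes after thinning, 774 held 1, 570 held 2, 240 held 3, 66 held 4, and 5 held 5.

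The arginine enzymes *Arg1* and *Nos2* were too rarely found together after thinning to be counted, with 5 cells against 1.46. Without thinning, 797 gated tendon cells held *Arg1*, 42 held *Nos2*, and 20 held both, against 12.7 for independent genes. Of the 20, 12 lay in the unnamed cluster led by *Arg1* and *Cxcl3*, where every cell held *Arg1*, so that their overlap there was fixed.

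**Figure D5:**
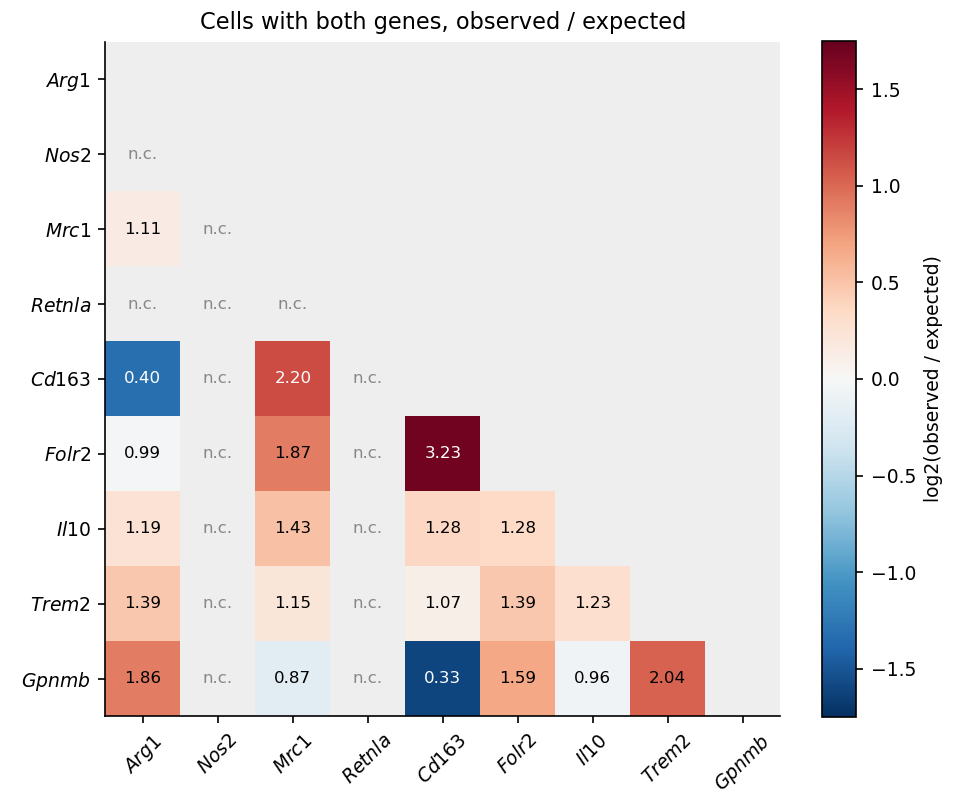
Observed over expected number of gated tendon cells with both genes of each pair, after thinning to 1000 UMIs per cell (color on a log2 scale, n.c. marks pairs with an expected number under 5). *Cd163* with *Folr2* is highest at 3.23, and *Cd163* with *Gpnmb* and with *Arg1* are lowest at 0.33 and 0.40, of which the latter was 0.80 with another random draw and both were above 1 without thinning (1.13 and 1.12).

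The neighborhood of each gene was described with 8 lists of pathway genes, comparing gated tendon cells that held a UMI of the gene after thinning with gated cells that did not. *Retnla* and *Nos2* had too few such cells. The 2-fold limit was used over 10461 genes, and the genes named were picked after their values were seen. Around *Arg1* (349 cells, beside 1.28% of all genes higher and 12.8% lower), 10 of 18 lipid associated genes were higher and 0 lower. Among them were *Spp1*, encoding osteopontin, at 7090 against 1033 CPM (log2 ratio 2.78), the elastase gene *Mmp12* (2.89), lipoprotein lipase *Lpl* (1.52), and the lipid droplet coat gene *Plin2* (1.43). Of 17 classical activation genes, *Il1a* (1.37) and *Tnf* (1.03) were higher and 5 were lower, among them *Cxcl10* (-1.15) and *Irg1* (-1.50). Of 14 alternative activation genes 3 were higher and 4 lower. Of 12 arginine and polyamine genes, the arginine transporter gene *Slc7a2* was higher (1.17, 0.69 to 1.63) and 1, the spermidine synthase gene *Srm*, was lower.

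Around *Mrc1* (983 cells, beside 3.94% higher and 11.5% lower), *Cd163* (208 cells, beside 4.33% and 12.7%), and *Folr2* (290 cells, beside 2.44% and 11.4%), tissue resident genes were higher, in 9, 10, and 9 of 11, and 0 were lower. The hyaluronan receptor gene *Lyve1* had log2 ratios of 4.04, 3.58, and 2.26. Of 17 classical activation genes 8, 9, and 9 were lower, and *Il1b*, encoding interleukin 1 beta, had log2 ratios of -1.74, -2.71, and -2.90. The 14 alternative activation genes went both ways, with 5, 5, and 2 higher and 3, 6, and 6 lower. Of 12 arginine and polyamine genes 5 were lower around each of these genes and 0 higher. *Spp1*, higher around *Arg1*, was at 514 CPM in *Cd163* cells and 1909 in the others (-1.89).

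Around *Il10* (178 cells, beside 0.535% higher and 12.5% lower), the prostaglandin synthase gene *Ptgs2* was at 524 against 237 CPM (1.15), and *Tnf* (436 against 217 CPM), *Il1a* (1.15), and the interleukin 1 antagonist gene *Il1rn* (1.06) were higher as well, while *Il6* was lower (-2.20). Of 17 classical activation genes 3 were higher and 4 lower. Around *Trem2* (746 cells, beside 0.631% higher and 9.87% lower), 5 of 18 lipid associated genes were higher, among them *Spp1* (1.71), *Syngr1* (2.11), and *Apoe* (1.36), and 2 were lower. Around *Gpnmb* (154 cells, beside 3.11% higher and 16.1% lower), 10 of 18 were higher, with *Syngr1* at 3.11 and *Ctsd* at 2.01. The oxysterol receptor gene *Nr1h3* (1.77) was higher as well. Among 17 classical activation genes 1, *Cxcl10* (1.14), was higher around *Gpnmb* and 8 were lower. Around *Il10*, *Trem2*, and *Gpnmb*, 0, 1, and 0 of 14 alternative activation genes were higher and 2, 2, and 5 lower. The cells without a gene include gated cells of other types. Within the monocyte/macrophage-like cells alone, the counts for lipid associated genes were 9 around *Arg1*, 3 around *Trem2*, and 7 around *Gpnmb*, those for resident genes were 9, 8, and 6 around *Mrc1*, *Cd163*, and *Folr2*, and of the classical activation genes 0 were higher around *Arg1* and *Gpnmb* and 1 around *Il10*. The classical genes lower around *Mrc1*, *Cd163*, and *Folr2* were then 4, 6, and 7, the arginine and polyamine genes lower were 2, 4, and 3, and around *Il10* 0 deactivation genes, *Il1rn* included, were higher. Around *Il10* 0 classical genes were then lower, so the 2-fold call of *Il6* was lost, while around *Arg1* 3 and around *Gpnmb* 7 were. Alternative activation genes higher around *Arg1*, *Mrc1*, *Cd163*, and *Folr2* were then 2, 4, 4, and 2. Those lower were 4, 3, 6, and 5.

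The same lists were followed from blood to the tendon in Csf1r-positive cells, beside the median log2 ratio of 0.29 over all genes. The list counts below stand beside 28.7% of all 13493 genes higher and 11.7% lower by at least 2-fold. Of 18 lipid associated genes 13 were higher in the tendon and 0 lower (median 2.19), led by *Spp1* (log2 ratio 8.42) and *Syngr1* (6.21). Of 13 resident genes 9 were higher and 3 lower (median 2.92). *Cd209f* (6.60) and *Cbr2* (6.59) were higher, and *Timd4*, the phosphatidylserine receptor of long-lived macrophages, at -5.75, and *Vsig4*, a complement receptor, at -2.94, were lower. Of 18 classical activation genes 11 were higher and 2 lower (median 1.78), with *Ptgs2* (8.02) and *Il1a* (6.72) at one end and *Gpr18* (-3.36) and *Fpr2* (-1.58) at the other. Of 17 alternative activation genes 8 were higher and 6 lower (median 0.86), with *Egr2* (4.80) and *Cish* (2.98) higher and *Alox15* (-13.15) and *Ear2* (-3.74) lower.

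For deactivation and efferocytosis, the uptake of dying cells, 6 of 15 genes were higher and 2 lower (median 0.72), with *Gas6* (8.96, lower limit 8.665), *Stab1* (6.76), *Marco* (-2.93), and *Slc40a1* (-2.77) at the ends. *Slc40a1* was a leading gene of the larger neutrophil-like blood cluster, and *Fpr2* of a neutrophil-like marrow cluster. Neutrophil-like cells made up 25.5% of the blood gate and 4.39% of the tendon gate. Their part in these 2 ratios was not tested. Of 13 arginine and polyamine genes 7 were higher and 0 lower (median 1.07), led by *Odc1* (4.14), which turns ornithine into polyamines, and *Ddah2* (4.04). Of 16 regulators 6 were higher and 2 lower (median 0.17), with *Kdm6b* (2.09), *Rara* (-1.41), and *Tfeb* (-1.28). Of 8 inducers and partners 1 was higher and 4 lower (median -0.80), and haptoglobin *Hp*, the partner of the CD163 protein, was at -2.70 and *Hcst* at -1.52. The *Prg4*-led blood cluster held every blood UMI of *Timd4* and *Vsig4*, 98.4% of *Alox15*, and 99.5% of *Marco*. Without it *Marco* was higher in the tendon (4.47, 1.96 to 9.78). With their blood count of 0 set to 3 UMIs, *Timd4* and *Vsig4* were at 0.65 and 1.55, with lower limits of 0.23 and 1.19.

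Of the genes that act directly on the markers, the IL-4 receptor gene *Il4ra* was at 34.4, 73.8, and 154 CPM in gated marrow, blood, and tendon cells. The cytokines that engage it were hardly detected, with 25 UMIs of *Il4* and 13 of *Il13* in all 4780 tendon cells. The IL-10 receptor gene *Il10ra* was at 20.5, 59.4, and 48.7 CPM, higher in blood than in the tendon by less than 2-fold, and *Tyrobp* at 1994, 3800, and 2137. *Arg2*, the mitochondrial arginase, stood at 10.8, 40.6, and 45.2, without the separation of tendon from blood seen for *Arg1*. In blood, 301 of its 372 gated UMIs lay in the larger neutrophil-like cluster (244 CPM). The classical monocyte cluster was at 10.5 CPM, and the cluster led by *Cd300e* and *Ace* had 0 UMIs. The likeness of tendon and blood thus holds for the whole gate and not for the blood monocyte clusters. *Acod1*, listed as *Irg1*, makes itaconate and was at 2.32, 10.7, and 40.2. In blood, 89 of its 98 gated UMIs lay in the same neutrophil-like cluster (72.3 CPM), and the classical monocyte cluster was at 0.37 CPM. All kept tendon cells were at 76.0 CPM, above the tendon gate, and *Irg1* was among the leading genes of the neutrophil-like cluster led by *Retnlg*. These gate values are therefore not levels of monocytes and macrophages alone.

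Across the 51 clusters of at least 30 cells in the 3 libraries, the genes with the most similar profile were named by Pearson correlation of log2(CPM + 1), as a description over clusters that share libraries and depth. *Mrc1* was most like *C1qb* (0.92), *C1qa* (0.92), and *C1qc* (0.92), and *Cd163* like *Ccl12* (0.88) and *Fcrls* (0.87). *Folr2* was most like *Ms4a14* (0.94), *Ccl12* (0.93), and *Fcrls* (0.92), and *Trem2* like *Aif1* (0.95) and *Fcgr1* (0.94). *Arg1* was most like *Pf4* (0.92), *Gpnmb* like *Ms4a7* (0.87) and *Sepp1* (0.85), *Il10* like *4930589L23Rik* (0.93), and *Retnla* like *Fcna* (0.81) and *Cd5l* (0.76). Most *Retnla* UMIs lay in the *Prg4*-led blood cluster, which also had *Cd5l* among its leading genes. The correlations of *Retnla* without this cluster were not computed. For *Nos2* the closest were *2010005H15Rik* (0.81), *Irg1* (0.80), and the cystine transporter gene *Slc7a11* (0.75).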

How the data were processed

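The authors made 10x Genomics 3' v3 libraries and deposited 1 matrix of UMI counts per library, produced by Cell Ranger (5.0.1, per the file headers) on mm10, as named in the submitters' processing notes. The counts are raw, so a level also depends on cell capture and depth. The 1855 bone marrow, 2241 blood, and 5629 tendon barcodes held 49580625, 22542581, and 90621052 UMIs.

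Cells with at least 200 genes and at most 20% mitochondrial UMIs were kept, which removed 15, 57, and 651. Scrublet scores ranked the cells, its own threshold called 9, 31, and 0, and the 27, 38, and 198 highest-scoring cells (0.8% per 1000 cells) were removed instead. Each library was clustered (scanpy 1.11.5, leidenalg 0.10.2, 2000 variable genes, 30 components, resolution 1) with the 9 genes and *Csf1r* left out, and a cluster was named from at least 3 detected markers. Ratios used exact binomial intervals for genes with at least 20 UMIs over both groups, or at least 100 for cells with and without a gene. A count of 0 was set to 3. Scripts were tested on simulated data.

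The genes and lists were chosen with earlier results of these data known. Named list genes were, per list and direction, the 2 with the largest tendon to blood ratio past 2-fold among those with at least 100 UMIs, besides 7 genes picked by role, and the 3 genes most like each member were ranked among genes with at least 200 UMIs. Some genes that this rule would name are not reported here. No gene is compared with another in level, since 3' UMIs are not per length.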

Additional observations from a re-analysis of the deposited data

How the results depend on the processing

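No paired analysis was possible because each site had 1 library, and for the same reason no library could be left out. From blood to tendon, members higher stayed at 8 or 7 and members lower at 1 under every alternative run, and from marrow to tendon members higher stayed between 7 and 9. The 1 lower member of the main run was *Retnla*, which rests on few cells. Without the *Prg4*-led cluster, 244 of its 245 blood UMIs were in 1 cell. With the top 1% of cells left out, no tendon UMI remained, as 21 cells held all of them. The ratio was then set by the floor. The constant count is therefore not a measure of robustness. Counts over all genes moved more. Genes higher from blood to tendon (3872) were 2059 with the gate applied after thinning, 2093 in named clusters, 2103 with gate and named clusters together, and 2262 without other named types, and genes lower (1575) were 2536 at a minimum of 1 UMI. Genes higher from marrow to tendon (3698) were 1854, 2327, 2328, and 2370 in the same order, and 2341 at 100 UMIs. From marrow to blood, members higher (4) were 2 with double doublet removal and with each of these 4 gates, and 1 without the *Prg4*-led cluster or the top 1% of cells, while members lower (0) were 1 with cells weighted equally and without that cluster. Genes higher there (1113) were 671 with the thinned gate and 677 at 100 UMIs, and genes lower (1732) were 800 with the thinned gate. The direction turned for *Nos2* from marrow to tendon with the thinned gate (-0.32) and for *Mrc1* from marrow to blood with cells weighted equally (-0.97) or without the top 1% (-0.45). With the thinned gate 0 of the 8 members kept most of their tendon UMIs in the gate, because fewer cells pass it. Pairs more often together (6) ranged from 5 to 7, but the pairs themselves changed. Without thinning, *Mrc1* with *Cd163* (1.47), *Mrc1* with *Folr2* (1.44), and *Trem2* with *Gpnmb* (1.19) fell short of 1.5 times. *Arg1* with *Nos2* (1.58), *Retnla* with *Folr2* (2.12), *Retnla* with *Il10* (1.72), and *Cd163* with *Il10* (1.58) passed it instead. Pairs less often together (2) were 1 with another seed and 5 without thinning, and neither reported pair was among these 5, since *Arg1* with *Cd163* (1.12) and *Cd163* with *Gpnmb* (1.13) were then above 1. The 5 were *Nos2* with *Mrc1* (0.43), *Cd163* (0.36), *Folr2* (0.47), and *Gpnmb* (0.43), and *Arg1* with *Retnla* (0.47). The cause of the other changes was not tested. The gate without other named types and the fits without the *Prg4*-led cluster were chosen after seeing the data.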

Other observations

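Genes of other cell types led some comparisons of gated tendon cells with and without a member. Hemoglobin genes (*Hba-a2*, *Hbb-bt*, *Hba-a1*, *Hbb-bs*) headed the genes higher in *Mrc1* and in *Trem2* cells, and the mast cell genes *Cpa3*, *Mcpt4*, *Cma1*, and *Tpsb2* headed those higher in *Gpnmb* cells. Their part in the results was not tested.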
